A study of Homo sapiens with 4 samples.

Results

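Long non-coding RNA genes were taken from the gene tables by name: symbols that start with LINC or SNHG, symbols that end in -AS1, -AS2, -DT or -IT1, and 9 single names (MALAT1, NEAT1, H19, MEG3, TUG1, PVT1, CRNDE, GAS5 and MIAT). Of 3115 symbols with such a name, 296 had an FPKM that averaged at least 1 over the 4 libraries, among 11394 genes of all kinds at that level. FPKM are fragments scaled to the kilobases of a transcript and to the depth of its library. The members were thus chosen by name and by the measured level, and the level is given below as a description. Classed by name alone, the 296 comprised 149 antisense genes (-AS1, -AS2), 93 intergenic genes (LINC) and 26 divergent genes (-DT). There were also 22 small nucleolar RNA host genes (SNHG and GAS5). The rest were the nuclear RNAs MALAT1 and NEAT1, the single loci TUG1, PVT1 and CRNDE, and the intronic GABPB1-IT1. RefSeq names some members otherwise: LINC00888 is SNHG33 there, LINC01184 is SLC12A2-DT and BOLA3-AS1 is BOLA3-DT. Of the 93 LINC loci, 19 overlap another gene. The level that chose them was averaged over both groups, and 22 members had a mean under 1 FPKM in shPTPRN3 cells and 32 in shNC cells.

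The libraries came from U87, an established human glioma line, infected with lentivirus. shPTPRN3 cells (2 libraries) expressed an shRNA, a short hairpin RNA, that targets PTPRN (a secretory-granule protein of the receptor tyrosine phosphatase family). The control cells (2 libraries) are named shNC in the labels. Per the treatment protocol they carried the empty FUGW-H1 vector, and the series' design text calls the control H1-RFP. Only a single hairpin against PTPRN was used, and the labels do not say whether cells were pooled or cloned after infection. An empty control vector would hold no other hairpin, but the sources name the control differently and do not settle this. Per the series' design text the 2 libraries of a group were biological replicates.

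PTPRN itself had 4.96 and 3.62 FPKM in shPTPRN3 cells, against 27.6 and 19.8 FPKM in shNC cells. Its log2 fold change of -2.22 had an adjusted p of 0.0594 in the limma fit over all genes, just above the threshold of 0.05, and of 0.0270 without genes listed at 0 and 0.0363 with robust moderation. Of the markers of glioma cells, VIM had 1193 to 2098 FPKM and CD44 84.6 to 97.7 FPKM over the libraries, while GFAP and AQP4 were listed at 0 in all 4. PTPRC, EPCAM and PECAM1, markers of other cells, were under 1 FPKM in every library, while CD68, a lysosomal protein used as a macrophage marker, had 434 and 326 FPKM in shPTPRN3 cells, against 225 and 253 FPKM in shNC cells. Of 18 marker genes, 10 were tested and 0 called by limma, beside 0.421% of all genes, and 4 had an unadjusted p under 0.05, beside 13.5% of all genes. Of these 4, the mesenchymal COL1A2 had 323 and 369 FPKM in shPTPRN3 cells, against 67.4 and 86.5 FPKM in shNC cells (log2 fold change 2.16), with an adjusted p of 0.0787, and of 0.0388 without genes listed at 0. COL1A1 and FN1 had log2 fold changes of 1.71 and 1.70, and the neural stem cell marker NES one of -0.94. The part of these markers in the lncRNA results was not tested. In bulk RNA, fewer cells that express a gene and less RNA of it per cell cannot be told apart. FPKM below are scaled between libraries by a median ratio, and log2 fold changes are of shPTPRN3 over shNC on log2(FPKM + 1). The tables hold no counts; depth, estimated from the width of the deposited intervals, was 28.5 and 12.7 M fragments for shPTPRN3 replicates 1 and 2, and 18.3 and 12.1 M for shNC replicates 1 and 2. The median half-width of the deposited interval of a member was 15.5% and 27.5% of its FPKM in shPTPRN3 cells, and 18.4% and 26.9% in shNC cells.

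Long non-coding RNAs are transcribed and usually spliced like messenger RNAs but lack a long conserved reading frame. Names ending in -AS1 or -AS2 are meant for genes on the opposite strand of the gene they are named for. Names ending in -DT are meant for genes that start near the promoter of the named gene and run away from it. Small nucleolar RNA (snoRNA) host genes carry in their introns the small RNAs that guide the modification of ribosomal RNA; several begin, like ribosomal protein genes, with a C followed by a run of pyrimidines (a 5′ terminal oligopyrimidine start), and the spliced RNA that remains is often short-lived.

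The annotated RefSeq starts of the host genes differ within this class. The lines below give 10 bases before and 20 bases from the RefSeq start (build GRCh38.p14, 5′ to 3′ on the gene's strand), with capitals for the pyrimidine run where the start is a C followed by at least 3 pyrimidines. SNHG1 is shown as the host with the lowest unadjusted p, and RPL12, a ribosomal protein gene, for comparison.
SNHG19 (chr16:2155339-2155368, minus strand): ccgcccctgtCTTTTCggggtcgagtccga
SNHG32 (chr6:31834906-31834935, plus strand): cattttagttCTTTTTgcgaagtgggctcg
SNHG5 (chr6:85678714-85678743, minus strand): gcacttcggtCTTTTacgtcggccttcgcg
SNHG7 (chr9:136728165-136728194, minus strand): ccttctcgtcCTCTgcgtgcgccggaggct
SNHG1 (chr11:62855866-62855895, minus strand): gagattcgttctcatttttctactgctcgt
RPL12 (chr9:127451387-127451416, minus strand): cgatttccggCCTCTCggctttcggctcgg

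Such a start was found in 6 of 19 host genes with a RefSeq promoter sequence (31.6%), in 44 of 66 ribosomal protein genes (66.7%), in 14 of 237 lncRNA members (5.91%) and in 5.45% of 27305 promoters of all kinds. The other 2 hosts with it were SNHG12 and SNHG18; the RefSeq start of SNHG12 lies 1110 bases from the start in the tables. Among the hosts without it, that distance is 163 bases for GAS5 and 49 bases for SNHG17, and it is 0 for the other 16 hosts, so the starts of these 3 genes may not be those behind the FPKM. Only the annotated start base was read, so a gene without the run there is not shown to lack such a start. This holds for the ribosomal protein genes too, and the starts used in these cells were not measured. The median log2 fold change was -0.90 (range -2.42 to 0.20) for the 6 hosts with the run at the annotated start. It was -0.49 (range -1.77 to 0.60) for the 13 without it there. The -2.42 is that of SNHG12, which was listed at 0 in shPTPRN3 replicate 2. The part of the start in these differences was not tested.

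Over the 296 lncRNA genes, the log2 fold changes were centred close to those of all genes. The median was 0.01 (quartiles -0.38 and 0.43), beside -0.01 (quartiles -0.37 and 0.35) over all genes tested. At an adjusted p under 0.05 (limma, Benjamini-Hochberg over all genes), 3 members were called, 1.01% of members beside 0.421% of all genes. Of these, 1 was higher in shPTPRN3 cells, as were 0.079% of all genes, and 2 were lower, as were 0.342%. All 3 were listed at 0 in both libraries of a group, so they passed the minimum level only through the group where they were high. The unadjusted p was under 0.05 for 35 members (21 higher and 14 lower), 11.8% beside 13.5% of all genes.

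The libraries of the groups did not overlap in 74 members that were higher in shPTPRN3 cells (25%) and in 46 that were lower (15.5%), beside 21.5% and 23.1% of all genes. The classes varied in this. The divergent genes had a median log2 fold change of 0.31, with 17 of 26 above 0, 10 not overlapping on the higher side and 2 on the lower. Their median was 0.17 within replicate 1 and 0.49 within replicate 2. In 16 of the 26, shNC replicate 2 was the lowest library, as it was in 2616 of the 11394 genes tested. The intergenic genes had a median of 0.14, with 25 of 93 higher and 16 lower without overlap. For the antisense genes the median was 0.00 to 2 decimals, and 36 of 149 were higher and 23 lower without overlap. Several genes counted as antisense are -DT genes in RefSeq, among them COX10-AS1, TNKS2-AS1, UBA6-AS1 and YTHDF3-AS1. The values of the antisense and divergent classes thus hold only for the names used here. The snoRNA host genes had the lowest class median, -0.72, and 19 of 22 were below 0, while 50.5% of all genes were below 0.

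**Figure D1:**
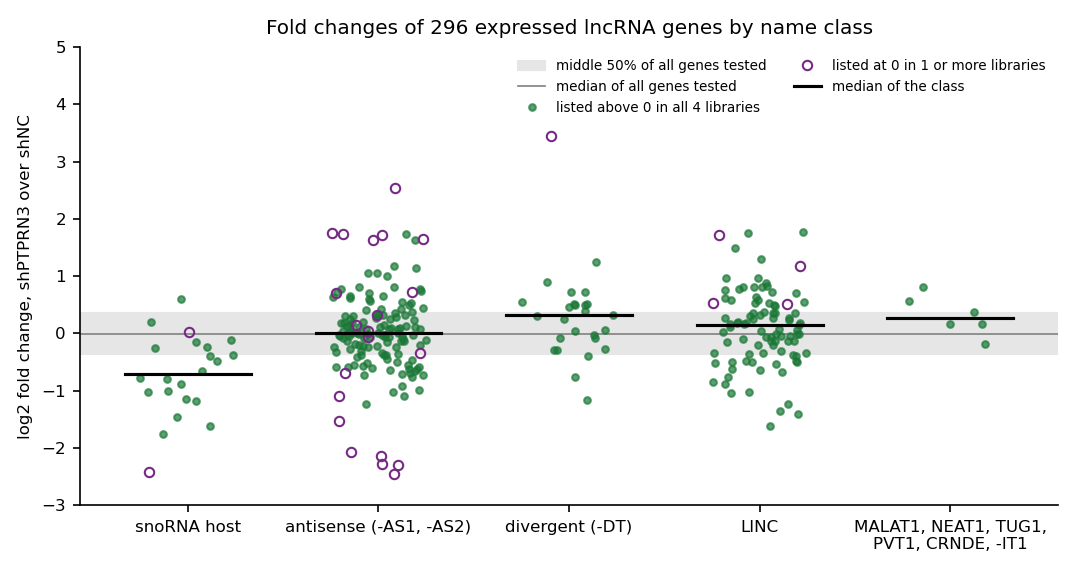
Log2 fold change, shPTPRN3 over shNC, of each of the 296 expressed lncRNA genes (points) by name class, with the class median as a black line and open circles for genes listed at 0 in at least 1 library. The snoRNA hosts have a median of -0.72 and the divergent genes one of 0.31, and the points farthest from 0 are mostly open circles.

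The snoRNA host genes together summed to 996 and 466 FPKM in shPTPRN3 cells, against 2006 and 854 FPKM in shNC cells. Replicate 1 was higher than replicate 2 in both groups, and shPTPRN3 replicate 1 was above shNC replicate 2. None of the 22 was called, and 3 had an unadjusted p under 0.05, all lower. Of the hosts, 5 were lower in shPTPRN3 cells without overlap of the groups (SNHG1, SNHG3, SNHG29, GAS5 and SNHG21), a share of 22.7%, close to the 23.1% over all genes, and 1 was higher (SNHG14).

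SNHG1, which hosts several snoRNAs and whose spliced RNA is a known target of nonsense-mediated decay, had 15.1 and 9.30 FPKM in shPTPRN3 cells, against 64.0 and 28.4 FPKM in shNC cells. Both shPTPRN3 libraries lay below both shNC libraries, and the log2 fold change was -1.77 (SE 0.47, adjusted p 0.174 in limma). SNHG3 had 21.3 and 7.83 FPKM in shPTPRN3 cells, against 61.0 and 28.7 FPKM in shNC cells, with a log2 fold change of -1.61 (SE 0.55, adjusted p 0.278). Its locus overlaps RCC1, SNORA73A and SNORA73B, and reads of overlapping genes may have been divided between them. SNHG29, the host with the highest level, had 319 and 152 FPKM in shPTPRN3 cells, against 656 and 384 FPKM in shNC cells (log2 fold change -1.19, adjusted p 0.421). GAS5, named for its accumulation in growth-arrested cells, had 32.3 and 26.9 FPKM in shPTPRN3 cells, against 95.4 and 39.1 FPKM in shNC cells (log2 fold change -1.03, SE 0.48, adjusted p 0.414). In these 4 hosts shNC replicate 1 was the highest library. SNHG21, the least abundant of the 5, had 5.83 and 2.81 FPKM in shPTPRN3 cells, against 11.9 and 5.93 FPKM in shNC cells, a log2 fold change of -0.89, and the gap between the groups was small beside the gap within each.

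In most other hosts the pairs crossed. SNHG8 had 178 and 46.9 FPKM in shPTPRN3 cells, against 305 and 81.4 FPKM in shNC cells, so that replicate 1 exceeded replicate 2 by 3.8-fold in shPTPRN3 cells and by 3.75-fold in shNC cells. SNHG19 had 58.2 and 13.8 FPKM in shPTPRN3 cells, against 167 and 38.7 FPKM in shNC cells, again with replicate 1 above replicate 2, by 4.22-fold and 4.31-fold. SNHG5 had 89.9 and 40.6 FPKM in shPTPRN3 cells, against 154 and 59.9 FPKM in shNC cells. SNHG32, SNHG7 and SNHG15 followed the same order of libraries: in each, shNC replicate 1 was highest and shPTPRN3 replicate 2 lowest. SNHG32 had 35.1 and 24.7 FPKM in shPTPRN3 cells, against 82.3 and 32.6 FPKM in shNC cells. SNHG7 had 30.6 and 19.7 FPKM in shPTPRN3 cells, against 91.1 and 28.0 FPKM in shNC cells. SNHG15 had 4.46 and 1.90 FPKM in shPTPRN3 cells, against 15.3 and 3.81 FPKM in shNC cells. The log2 fold changes of these 6 ran from -0.66 for SNHG5 to -1.47 for SNHG19, where the limma adjusted p was 0.483.

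A further 8 hosts had log2 fold changes between -0.12 and -0.49 (SNHG6, SNHG9, SNHG10, SNHG11, SNHG16, SNHG17, SNHG30) or of 0.20 (SNHG18), each with overlapping groups. SNHG6, for example, had 64.9 and 60.5 FPKM in shPTPRN3 cells, against 104 and 53 FPKM in shNC cells. SNHG9 had 41.5 and 6.11 FPKM in shPTPRN3 cells, against 51.5 and 8.83 FPKM in shNC cells, which differ more between the replicates than between the groups. SNHG12 was listed at 0 in shPTPRN3 replicate 2 and had 6.24 FPKM in the other, against 28.9 and 5.96 FPKM in shNC cells; it overlaps TRNAU1AP. Its adjusted p was 0.363 in limma over the 4 libraries. SNHG20 was listed at 0 in replicate 2 of both groups, and had 6.17 FPKM in shPTPRN3 replicate 1 and 5.89 FPKM in shNC replicate 1. SNHG14, the long transcript from the imprinted region on chromosome 15, ran the other way with 1.64 and 1.98 FPKM in shPTPRN3 cells, against 0.495 and 1.28 FPKM in shNC cells (log2 fold change 0.60).

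**Figure D2:**
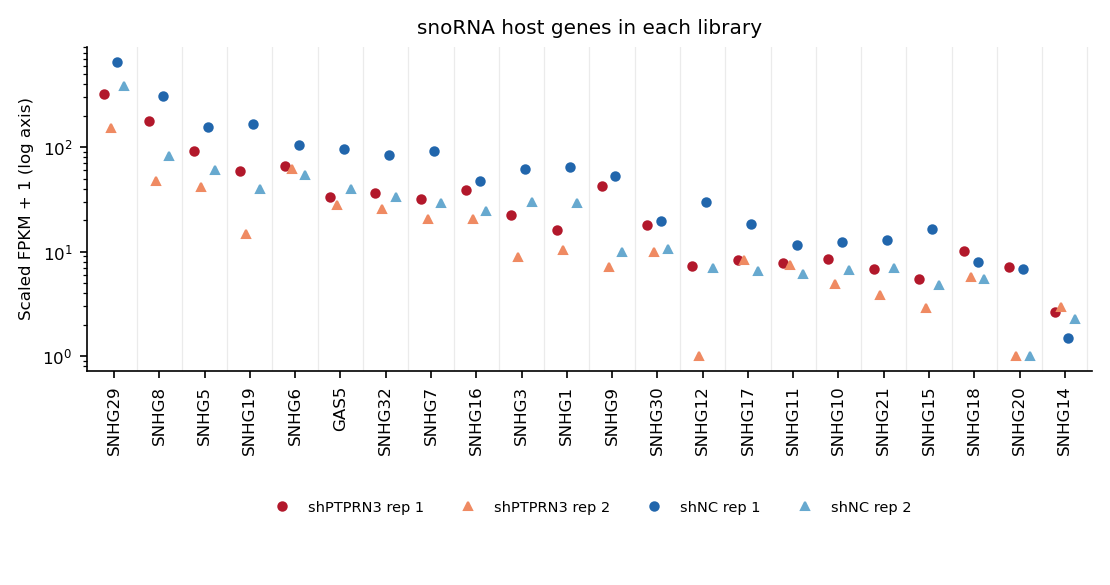
Scaled FPKM + 1 (log axis) of the snoRNA host genes in each of the 4 libraries, with points of shPTPRN3 cells left of those of shNC cells for each gene. shNC replicate 1 was the highest library in 19 of the 22 hosts and shPTPRN3 replicate 2 the lowest in 17.

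The order of libraries in the hosts was shared by ribosomal protein genes, of which 81 of 82 had a log2 fold change below 0 (median -0.53). Within replicate 1 the median was -0.85 for the hosts and -0.74 for the ribosomal protein genes, and within replicate 2 it was -0.48 and -0.38. The difference between replicates was larger than that between groups: replicate 1 minus replicate 2 had a median of 0.85 in shPTPRN3 cells and 1.21 in shNC cells over the hosts. Without shNC replicate 1 the host median was -0.01 and 11 of 22 were below 0, and the ribosomal protein median was -0.02. Without shPTPRN3 replicate 2 it was -0.30, without shPTPRN3 replicate 1 it was -1.27, and without shNC replicate 2 it was -1.41. The values without shNC replicate 1 or without shPTPRN3 replicate 2 thus lay nearer to 0, and the class median was below 0 within each replicate number.

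MALAT1, an abundant RNA of nuclear speckles whose 3′ end is not a conventional poly(A) tail, differed most between replicates in each group among the members never listed at 0. It had 34.7 and 734 FPKM in shPTPRN3 cells, against 31.0 and 377 FPKM in shNC cells. Replicate 2 exceeded replicate 1 by 21.1-fold in shPTPRN3 cells and by 12.1-fold in shNC cells, and MALAT1 made up 1.21% and 24.7% of the members' FPKM in shPTPRN3 cells, against 0.804% and 14.1% in shNC cells. Its log2 fold change of 0.56 had an SE of 1.56 (adjusted p 0.922 in limma). Leaving out a library, which makes the replicate numbers unequal between the groups, moved it between -1.62 and 2.74. The log2 difference was 0.16 within replicate 1 and 0.96 within replicate 2. The labels do not say that replicate numbers pair the libraries, so no direction can be given.

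NEAT1, the RNA scaffold of paraspeckles, had 349 and 498 FPKM in shPTPRN3 cells, against 212 and 267 FPKM in shNC cells. Both shPTPRN3 libraries were above both shNC libraries, with means of 423 ± 105 and 240 ± 39.0 FPKM (SD, n = 2 each), and the ratio of the means was 1.76. The log2 fold change of 0.80 (SE 0.46) had an adjusted p of 0.484 in limma and lay between 0.55 and 1.06 when a library was left out.

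**Figure D3:**
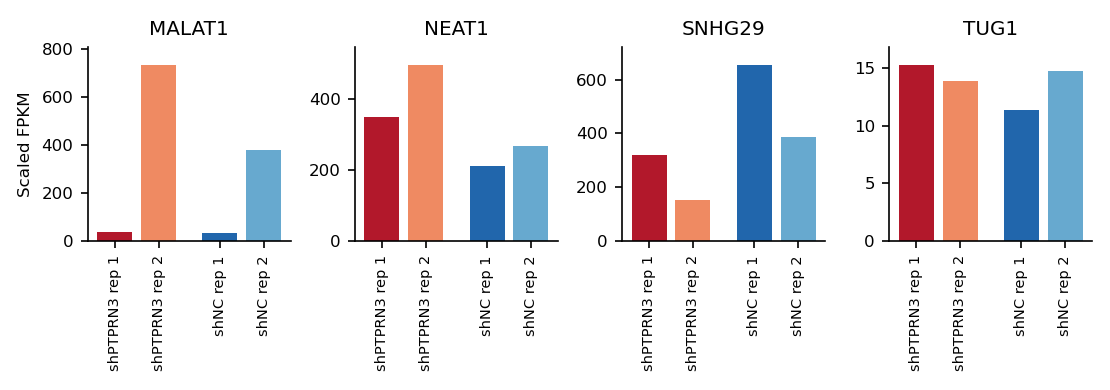
Scaled FPKM (linear axis from 0) of MALAT1, NEAT1, SNHG29 and TUG1 in shPTPRN3 replicates 1 and 2 (left pair of bars) and shNC replicates 1 and 2 (right pair). MALAT1 separates by replicate number, NEAT1 is higher in both shPTPRN3 libraries, SNHG29 is lower in both, and TUG1 overlaps.

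Of the other single names, TUG1, a broadly expressed lncRNA that the RefSeq table types as protein-coding, had 15.3 and 13.9 FPKM in shPTPRN3 cells, against 11.4 and 14.7 FPKM in shNC cells. CRNDE, named for its expression in colorectal neoplasia, had 6.79 and 3.25 FPKM in shPTPRN3 cells, against 6.13 and 2.70 FPKM in shNC cells. PVT1, the neighbour of MYC, had 1.85 and 1.67 FPKM in shPTPRN3 cells, against 2.97 and 1.47 FPKM in shNC cells. Groups overlapped in all 3, and the log2 fold changes of 0.16, 0.16 and -0.18 each changed sign when a library was left out. H19, MEG3 and MIAT did not reach the minimum level: the highest deposited value of any of them in any library was 0.270 FPKM, for MIAT in shPTPRN3 replicate 2.

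The 3 called members were CNOT2-DT, VPS9D1-AS1 and PRRT3-AS1. CNOT2-DT (chr12:70222191-70243360), a divergent gene at the promoter of a CCR4-NOT deadenylase subunit, had 12.4 and 7.97 FPKM in shPTPRN3 cells and was listed at 0 in both shNC libraries (adjusted p 0.0112, limma). VPS9D1-AS1 (chr16:89711856-89718165) was listed at 0 in both shPTPRN3 libraries and had 4.94 and 4.07 FPKM in shNC cells (adjusted p 0.0280). PRRT3-AS1 (chr3:9947404-9954787) was also listed at 0 in both shPTPRN3 libraries, with 4.56 and 3.29 FPKM in shNC cells (adjusted p 0.0381). No fold is given for them, since a listing at 0 can be a failed estimate, although the rows used here were marked OK in every library.

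Each of these 3 loci overlaps the gene it is named for, and the strand setting of the quantification is not given in the sources used here, so the reads of the pair cannot be told apart. CNOT2 had 13.5 and 12.6 FPKM in shPTPRN3 cells, against 15.8 and 17.1 FPKM in shNC cells. VPS9D1 had 10.9 and 7.17 FPKM in shPTPRN3 cells, against 12 and 10.5 FPKM in shNC cells. PRRT3, at 5.98 and 4.17 FPKM in shPTPRN3 cells against 2.77 and 2.77 FPKM in shNC cells, was higher where its antisense gene was at 0. None of the 3 was called, with log2 fold changes of -0.31, -0.31 and 0.67.

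All calls were lost when no filter on low values was used. CNOT2-DT then had an adjusted p of 0.142 in limma, and it was also above 0.05 with a minimum mean of 5 FPKM (0.0866). With a pseudocount of 0.1 the adjusted p was 0.0792 for VPS9D1-AS1 and 0.0841 for PRRT3-AS1. PRRT3-AS1 was also above 0.05 with FPKM as deposited (0.0621), as TPM (0.0506), after quantile normalization (0.0625) and without a trend in the moderation (0.0597).

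Listings at 0 were commoner among lncRNA members than among all genes: 28 members (9.46%) were at 0 in at least 1 library, beside 2.34% of all genes tested. Of the 28 loci, 27 overlap another gene of the tables, beside 114 of the 268 members that were never at 0 (42.5%). Members differ from all genes tested in level (median of the mean 2.88 FPKM beside 7.82 FPKM). They also overlap another gene more often (47.6% beside 33.8%). The part of level and overlap in the listings at 0 was not tested. Another 3 members were at 0 in both libraries of a group and above 0 in both of the other. MELTF-AS1 was at 0 in both shPTPRN3 libraries, against 3.85 and 2.67 FPKM in shNC cells (adjusted p 0.0520, limma). USP3-AS1 had 2.2 and 2.42 FPKM in shPTPRN3 cells and was at 0 in shNC cells (adjusted p 0.0639), and NIFK-AS1 had 2.07 and 2.19 FPKM in shPTPRN3 cells and was at 0 in shNC cells (adjusted p 0.0663). With robust moderation in limma the adjusted p was under 0.05 for MELTF-AS1 (0.0250), USP3-AS1 (0.0364) and NIFK-AS1 (0.0403). A fit that leaves out a library has a single library on a side, so no p is given from it for any gene.

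A further 6 members had a value in a single library and 0 in the other 3. PCNA-AS1, which lies within PCNA, the sliding clamp of DNA replication, had 32.5 FPKM in shPTPRN3 replicate 1 alone. PCNA had 30.4 and 25.5 FPKM in shPTPRN3 cells, against 80.4 and 49.6 FPKM in shNC cells (log2 fold change -1.15, adjusted p 0.256). ATP2A1-AS1 had 23.0 FPKM and PITPNA-AS1 18.5 FPKM, each in shNC replicate 1 alone. THUMPD3-AS1 had 8.58 FPKM and LINC01237 4.06 FPKM, each in shPTPRN3 replicate 1 alone, and TMEM147-AS1 had 7.34 FPKM in shNC replicate 2 alone.

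Leaving the genes listed at 0 out of the fit gave calls to 4 members that were measured above 0 in every library, 2 higher and 2 lower in shPTPRN3 cells. They were 1.49% of the 268 members in that fit, beside 1.97% of all genes in it, of which 0.377% were higher and 1.59% lower. ZBED5-AS1, the antisense gene of a transposase-derived zinc finger gene, rose in that fit, with 25.4 and 34.5 FPKM in shPTPRN3 cells against 9.70 and 8.24 FPKM in shNC cells (log2 fold change 1.62, SE 0.33). Its adjusted p was 0.0481 in that fit and 0.0940 in the fit over all genes, while ZBED5 had 8.16 and 9.76 FPKM in shPTPRN3 cells, against 9.38 and 8.39 FPKM in shNC cells. LINC02608 had 3.98 and 5.92 FPKM in shPTPRN3 cells, against 1.14 and 0.388 FPKM in shNC cells (log2 fold change 1.77, adjusted p 0.0346 without genes at 0 and 0.0925 with them). The 2 on the lower side were LINC01963 and LINC00987. LINC01963 had 1.21 and 1.91 FPKM in shPTPRN3 cells, against 5.23 and 8.67 FPKM in shNC cells (log2 fold change -1.62, adjusted p 0.0499 without genes at 0 and 0.112 with them). LINC00987 had 0.866 and 0.543 FPKM in shPTPRN3 cells, against 3.60 and 3.43 FPKM in shNC cells (log2 fold change -1.41, adjusted p 0.0426 without genes at 0 and 0.0997 with them). LINC02608 and LINC00987 averaged under 1 FPKM in their lower group, so they passed the minimum level only through the other group.

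Members with large differences that were called in neither fit gave the rest of the range. LINC00632, whose locus also yields the circular RNA CDR1as, had 13.4 and 26.0 FPKM in shPTPRN3 cells, against 4.76 and 5.03 FPKM in shNC cells (log2 fold change 1.74, adjusted p 0.115, limma). LINC01411 had 6.23 and 4.26 FPKM in shPTPRN3 cells, against 1.43 and 0.999 FPKM in shNC cells (log2 fold change 1.48). LCMT1-AS1 had 4.75 and 9.48 FPKM in shPTPRN3 cells, against 0.80 and 2.03 FPKM in shNC cells (log2 fold change 1.73). In all 3 every shPTPRN3 library was above every shNC library, though the shPTPRN3 pair of LINC00632 and of LCMT1-AS1 was itself far apart. DPH6-DT, at 1.89 and 3.07 FPKM in shPTPRN3 cells against 0.550 and 0.343 FPKM in shNC cells, was the divergent gene with the largest difference among those never at 0 (log2 fold change 1.25, adjusted p 0.153). Its neighbour DPH6, an enzyme of diphthamide synthesis, had 1.5 and 0.477 FPKM in shPTPRN3 cells, against 1.31 and 2.80 FPKM in shNC cells. ZNF503-AS2 and LINC00476 were also higher without overlap, but each was listed at 0 in shNC replicate 2. ZNF503-AS2 had 8.28 and 7.08 FPKM in shPTPRN3 cells and 5.65 FPKM in shNC replicate 1, and LINC00476 had 5.66 and 6.40 FPKM in shPTPRN3 cells and 3.57 FPKM in shNC replicate 1.

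On the lower side, PAX8-AS1, the antisense gene of the transcription factor PAX8 and 1 of the 10 most abundant members, had 27.1 and 66.9 FPKM in shPTPRN3 cells, against 105 and 98.5 FPKM in shNC cells (log2 fold change -1.23, adjusted p 0.335, limma). LINC01050 had 52.2 and 20.5 FPKM in shPTPRN3 cells, against 86.1 and 85.4 FPKM in shNC cells (log2 fold change -1.36, adjusted p 0.294). In both, the shNC libraries lay close together and the shPTPRN3 libraries did not. MAFG-DT had 1.11 and 1.30 FPKM in shPTPRN3 cells, against 5.30 and 2.86 FPKM in shNC cells (log2 fold change -1.16, adjusted p 0.212). MAFG, the small Maf transcription factor beside it, had 22.0 and 45.0 FPKM in shPTPRN3 cells, against 17.0 and 17.8 FPKM in shNC cells, and its log2 fold change of 0.82 had an adjusted p of 0.437. LINC02604 had 0.647 and 0.255 FPKM in shPTPRN3 cells, against 2.63 and 2.15 FPKM in shNC cells (log2 fold change -1.23).

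Some short members carry a doubt about their level. LINC01173, whose longest GENCODE transcript has 331 bases, had 48.3 and 60.4 FPKM in shPTPRN3 cells, against 25.3 and 18.0 FPKM in shNC cells (log2 fold change 1.30, adjusted p 0.182, limma). Its deposited FPKM lay above its own deposited interval in every library: in shPTPRN3 replicate 1 the value was 50.9 FPKM and the interval 16.7 to 23.2. LINC01444, with 68.5 and 20.7 FPKM in shPTPRN3 cells against 123 and 50.7 FPKM in shNC cells (log2 fold change -1.04), and LINC01050 also lay above their intervals in every library. Over the members with 1 row and a value above 0, this was so, in either direction, for 30 and 9 in the shPTPRN3 libraries and for 18 and 7 in the shNC libraries.

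**Figure D4:**
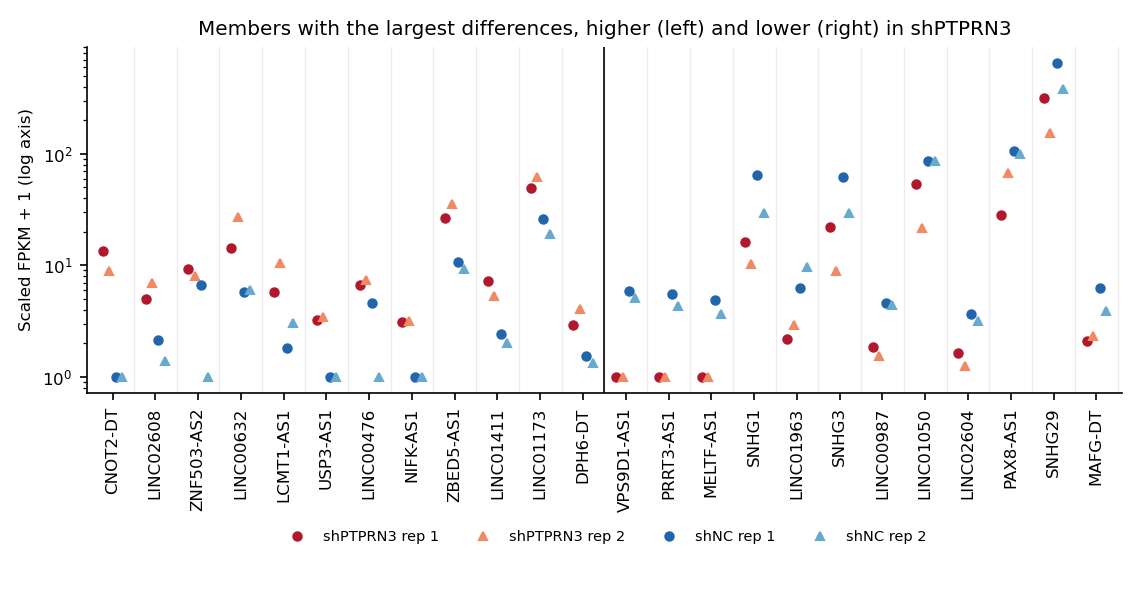
Scaled FPKM + 1 (log axis) in each library of the members with the largest differences among those whose groups did not overlap, higher in shPTPRN3 cells on the left and lower on the right, with shPTPRN3 points left of shNC points for each gene. CNOT2-DT has no shNC value above 0, and VPS9D1-AS1 and PRRT3-AS1 have no shPTPRN3 value above 0, so those points lie at 1.

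The antisense, divergent and intronic members were set beside the gene they are named for. In 135 pairs both genes were tested, in 36 the named gene was below the minimum, and 5 had no row of that name. The log2 fold changes of the 2 genes had the same sign in 73 of the 135 pairs, and Pearson's r across pairs was -0.15 (Spearman's rho -0.04). In the 114 pairs with no library at 0, r was 0.07 (rho 0.09) and 66 had the same sign. For the 62 pairs with overlapping loci, which include members listed at 0, r was -0.20 (rho 0.04) and 38 had the same sign. For the 73 pairs without overlap r was -0.08 (rho -0.11) and 35 had the same sign. Pairs share libraries, so these values describe these 4 libraries only.

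**Figure D5:**
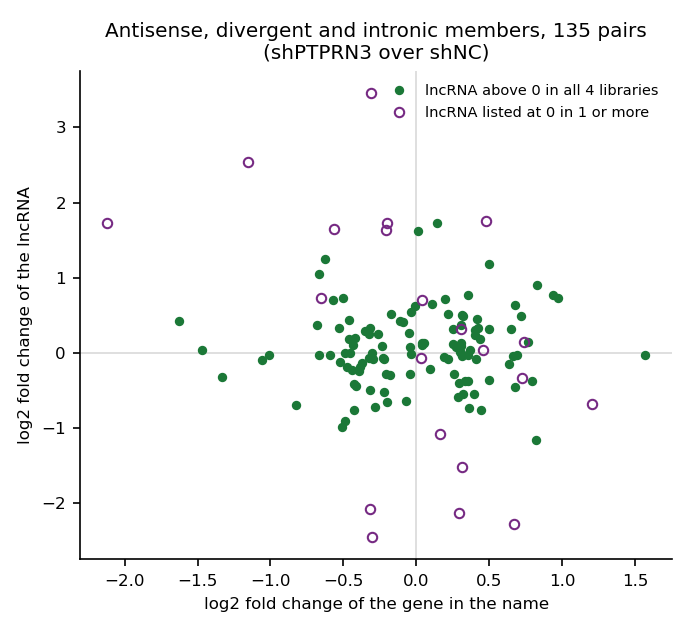
Log2 fold change (shPTPRN3 over shNC) of each lncRNA (vertical axis) against that of the gene it is named for (horizontal axis), for 135 pairs of antisense, divergent and intronic members. The points show no common slope, with 73 of the 135 pairs of the same sign.

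The minimum of 1 FPKM falls inside a dense range of levels, since 207 members had a mean of 1 to 5 FPKM, 64 of 5 to 20 FPKM and 25 of 20 FPKM or more, while 1151 names were above 0 and under 1 FPKM and 1668 were at 0 in every library. Just inside lay LHX4-AS1 (mean 1.01 FPKM), LINC01004, LINC00565, MAST4-AS1 and B3GALT5-AS1 (mean 1.02 FPKM), and just outside lay LINC02593 (mean 0.992 FPKM), FOXD2-AS1, LINC01061, LINC01260 and LINC00622 (mean 0.979 FPKM). The correlation of log2 levels across genes between the shPTPRN3 libraries was 0.792 for members and 0.936 for all genes tested, and between the shNC libraries 0.833 and 0.922. The 2 sets differ in level (median of the mean 2.88 FPKM for members and 7.82 FPKM for all genes), so these correlations are not directly comparable. Between the groups, members correlated at 0.803 within replicate number 1 and 0.806 within number 2, and at 0.767 and 0.695 across numbers.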

How the data were processed

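A kit that keeps strand was used for mRNA libraries of U87 cells, per the labels' protocols. The tools were Cufflinks 2.2.1.2, STAR 2.6.0b-1 and FastQC 0.72 on build hg38, per the submitters' processing notes. Annotation and strand setting were not given in the sources used here. Per the file headers, each deposited table holds FPKM with an interval and a status for 33646 rows. Such values depend on the assumed transcript length and on how fragments of overlapping genes are divided.

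Here, 651 rows not marked OK were dropped, and values were added up per symbol (27940 symbols) and scaled by median-ratio factors (1.05 and 0.943 for shPTPRN3, 1.04 and 0.974 for shNC) from 9988 genes. The 11394 genes averaging 1 FPKM or more went into limma 3.58.1 (R 4.3.3) on log2(FPKM + 1), with trended eBayes moderation, two-sided, Benjamini-Hochberg adjustment over all of them and a threshold of 0.05. The pseudocount understates changes of low genes. Residual degrees of freedom were 2. An exact permutation test of 2 against 2 cannot go below p = 0.333. Alternatives covered scaling, pseudocount, filters, moderation, genes at 0, the replicate number as a block and leaving out each library.

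The members and lists were chosen with earlier results of these data known. Named genes were the single names, all SNHG genes, members called with or without genes listed at 0, up to 12 members per direction with the largest change and no overlap of the groups (higher group averaging at least 2 FPKM), the 10 most abundant, members at 0 in both libraries of a group, partners (the symbol before the suffix), and neighbours of the minimum. lncRNAs outside the naming rule were named from lists, some after their values were seen. Positions are hg38, from 1, as in the tables. Lengths are from GENCODE 29 and sequences from RefSeq (GRCh38.p14), where 261 members matched by symbol and 35 by an older name. Python 3.11.15, pandas 2.3.3, numpy 2.4.6 and matplotlib 3.10.9 were used.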

Additional observations from a re-analysis of the deposited data

How the results depend on the processing

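The 3 called members became 1 with a pseudocount of 0.1, 0 in limma where low genes were not filtered out (31 at an unadjusted p under 0.05), 0 with a minimum mean of 5 FPKM (11 unadjusted) and 6 with robust moderation; leaving out a library gave 4 to 8, with 5 without shNC replicate 2 and 8 without shPTPRN3 replicate 1. Over all genes the 48 calls became 31 with FPKM as deposited, 30 as TPM, 23 at the lower pseudocount, 0 where low genes were kept (2163 unadjusted), 8 with a minimum of 5 FPKM, 26 without a trend, 160 with robust moderation and 219 without genes listed at 0; leaving out a library gave 39 to 178, the highest without shPTPRN3 replicate 1. The calls were 9 higher and 39 lower as reported, 10 and 20 as TPM, 8 and 23 as deposited, and 10 and 28 after quantile normalization. TPM moved the median of all genes to 0.08. The labels do not say that replicate numbers pair the libraries. The differences between numbers correlated at 0.52 over all genes between the groups. With the replicate number as a block, 66 of 296 members (31 higher and 35 lower) were called, beside 2168 of all 11394 genes. That fit leaves fewer residual degrees of freedom than the fit without the block. Of the 22 snoRNA hosts, 11 were then called (GAS5, SNHG1, SNHG3, SNHG7, SNHG8, SNHG12, SNHG15, SNHG19, SNHG21, SNHG29 and SNHG32), against 0 without the block. The cause of these moves was not tested.

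The direction of some single genes changed when a library was left out: MALAT1 lay between -1.62 and 2.74, TUG1 between -0.014 and 0.33, PVT1 between -0.53 and 0.16, CRNDE between -0.31 and 0.64, DANCR between -0.15 and 0.90, and ZBED5 between -0.11 and 0.12. ZBED5 was also at -0.0053 with FPKM as deposited. Leaving out a library makes the replicate numbers unequal between the groups. Within replicates 1 and 2, CRNDE was at 0.13 and 0.20 and DANCR at 0.34 and 0.41. TUG1 was at 0.40 and -0.08 and PVT1 at -0.48 and 0.11. Among the hosts, SNHG11 lay between -0.61 and 0.31, SNHG16 between -0.74 and 0.22, SNHG17 between -1.15 and 0.35, SNHG18 between -0.22 and 0.62, SNHG30 between -0.56 and 0.31, SNHG5 between -1.34 and 0.014, SNHG6 between -0.72 and 0.24, SNHG8 between -1.73 and 0.17, and SNHG9 between -1.68 and 0.90. The values without counts leave the depth behind each FPKM known only by estimate, and the deposited intervals cover error within a library, not between cultures.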

Other observations

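Other lncRNAs whose names fall outside the rule were read from a list of 45, of which 23 were tested and 0 called by limma over all genes, with 8 at an unadjusted p under 0.05 (13.5% of all genes were). The genes named from it were partly picked after their values were seen. The median log2 fold change of the 23 was 0.28, beside -0.01 over all genes, and 9 were higher and 4 lower in shPTPRN3 cells without overlap of the groups, beside 21.5% and 23.1% of all genes. ZFAS1, another snoRNA host, had 36.2 and 22.0 FPKM in shPTPRN3 cells, against 151 and 58.2 FPKM in shNC cells (log2 fold change -1.70, adjusted p 0.229). DANCR, also a snoRNA host, had 170 and 85.5 FPKM in shPTPRN3 cells, against 134 and 64.3 FPKM in shNC cells (log2 fold change 0.37). HOTAIRM1, from the HOXA cluster, had 43.2 and 36.9 FPKM in shPTPRN3 cells, against 23.8 and 11.1 FPKM in shNC cells (log2 fold change 1.24, adjusted p 0.273). MIR22HG, the host of miR-22, had 22.7 and 30.6 FPKM in shPTPRN3 cells, against 12.6 and 9.34 FPKM in shNC cells (log2 fold change 1.21, adjusted p 0.191).

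A list of p53-induced lncRNAs of human cells held 11 names, of which LINC01021 is an older name of PURPL and so adds no gene. Of the listed genes, 7 were tested and 0 called by limma, beside 0.421% of all genes, and 2 had an unadjusted p under 0.05, beside 13.5%. The median log2 fold change of the 7 was 0.80, beside -0.01 over all genes. PURPL, a p53-induced RNA that lowers p53 levels, had 23.0 and 31.9 FPKM in shPTPRN3 cells, against 6.58 and 6.99 FPKM in shNC cells (log2 fold change 1.85, SE 0.33, adjusted p 0.0724, limma). Its adjusted p was 0.0320 without genes listed at 0 and 0.0487 with robust moderation. LINC-PINT had 25.9 and 65.5 FPKM in shPTPRN3 cells, against 18.4 and 28.9 FPKM in shNC cells, with overlapping groups. TP53TG1 had 14.4 and 12.3 FPKM in shPTPRN3 cells, against 8.26 and 3.96 FPKM in shNC cells (log2 fold change 1.08). NEAT1, PVT1 and TUG1 are described above, and MIR34AHG had a log2 fold change of 0.28. PURPL, MIR34AHG and TP53TG1 also stand in the list of 45.

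In windows of 250 bases before to 50 after the RefSeq start, searched on both strands, the E2F motif TTTCGCGC was found in 4 of 237 members (1.69%), beside 0.546% of 27305 promoters. The E-box CACGTG was found in 23 members (9.70%), beside 7.43%, and the p53 core pair (CATG, 6 bases of any kind, CATG) in 1 member (0.422%), beside 0.392%.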
